A study of Mus musculus with 9 samples.

Results

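Cyth4 and 9 other genes best known from white blood cells (Tyrobp, Fcer1g, C1qb, C1qc, Coro1a, Cd14, Laptm5, Ptprc and Itgam) were followed across mouse oocytes of 3 maternal ages. Their probes were found by gene name among the probes of the array, which gave 13 probes for the 10 genes, of 39429 probes and 31645 genes or unnamed probes in all. The genes were chosen because Cyth4 and several blood-cell genes were higher in oocytes of the oldest females, so their differences between that age and the younger ages are given as a description, with no test. All 10 passed the filter on dim probes described below. A tested comparison that the choice did not use, prepubertal against mature, is given with its test.

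Transcripts were measured on 9 one-colour Agilent arrays, each carrying amplified RNA from a pool of 20 metaphase II oocytes, with 3 pools for each age. All females were of the B6C3F1 strain, which crosses C57Bl/6J with C3H/HeN, carried no genetic change that the labels name, and were prepubertal (3 weeks), mature (8 ± 1 weeks) or climacteric, that is near the end of reproductive life (58 ± 10 weeks on the samples, 52 weeks in the growth protocol). Every female was primed with 10 IU of the follicle-stimulating serum gonadotropin PMSG followed after 48 h by 10 IU of the ovulation-inducing hCG. Ovulated oocytes were collected from the oviduct after another 14 h and stripped of cumulus cells. The labels disagree on whether the zona pellucida was still present, they give no DNase step during RNA isolation, and they state 2 rounds of RNA amplification. The labels do not tie pools to individual females, so errors and p-values describe the spread of these pools, part of which may be technical. In pooled oocytes, fewer cells of a type and less RNA per cell cannot be told apart.

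Cyth4 encodes cytohesin-4, a guanine nucleotide exchange factor that activates small GTPases of the ARF family, and its expression is known mainly from blood cells, whereas the related Cyth1, Cyth2 and Cyth3 are expressed widely. Tyrobp (DAP12) and Fcer1g (the common Fc receptor gamma chain) are short membrane adaptors that lack a ligand-binding domain of their own. They pair with receptors such as Trem2 or the Fc receptors and signal through a cytoplasmic tyrosine motif (ITAM) to the kinase Syk. C1qb and C1qc encode chains of C1q, the recognition molecule of the classical complement pathway, which tissue macrophages secrete. Cd14 is the lipopolysaccharide co-receptor of monocytes, Itgam is the alpha chain of the integrin CD11b/CD18, Ptprc is the CD45 phosphatase, Coro1a is the coronin of haematopoietic cells and Laptm5 is a lysosomal membrane protein of leukocytes.

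A level is log2 of the processed spot signal minus the 75th percentile of its array, so 0 is that percentile and a step of 1 doubles the signal. The scanner software flagged 66.8% to 77.5% of an array's probes as well above background. Ages were spread unevenly over slides: slide 1 held every prepubertal array with mature array 1, slide 2 held mature arrays 2 and 3 with climacteric arrays 1 and 2, and slide 3 held climacteric array 3. Oocyte genes were measured throughout, as the labelled cell type implies. Of 17 oocyte markers (among them Zp1, Zp2, Zp3, Gdf9, Bmp15 and Mos), all 17 were tested and at least 16 were well above background on every array. Their median difference was 0.03 in climacteric against mature and -0.32 in climacteric against prepubertal oocytes. Single markers differed more. Mos had the largest negative difference from mature oocytes, -0.96 ± 0.17 (SE), without overlap (limma adjusted p = 0.180).

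The sequences that the probes of the main genes read are shown because each level rests on a single stretch of the transcript, and because 1 of them is a simple repeat. Each line gives the first 30 bases of the 60-base probe, 5′ to 3′, as the array files list it; capitals mark a CA repeat of 20 bases.
Cyth4: tctttcctgttgtaacactcaggagcaaga
Tyrobp: ggacccggaaacaacacattgctgagactg
Fcer1g: aggtccccatctccgttaaagacttactca
C1qb: attctggggactacggggctacacagaaag
C1qc: tctgggaaccacctaatggtattattcctg
Ptprc: gaggaaccagaacatgctgccaatggttct
Itgam: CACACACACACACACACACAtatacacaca
Per the file headers, positions are those of mouse build mm9. The Cyth4 probe lies at chr15:78452390-78452449 on the plus strand. The Fcer1g probe lies at chr1:173159794-173159853 and the Ptprc probe at chr1:139961083-139961142, both on the minus strand. The C1qb probe (chr4:136436578-136436637) and the C1qc probe (chr4:136445766-136445825) lie close together on the minus strand. The 60 bases of the Tyrobp probe are spread over 1728 bases of the genome (chr7:31200651-31202378, plus strand), so this probe reads a stretch that is not contiguous in the genome. Which exon or untranslated region each probe lies in was not analysed here. Outside Itgam, the longest run that any of the probes shared with a probe of another gene was 15 bases.

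**Figure D1:**
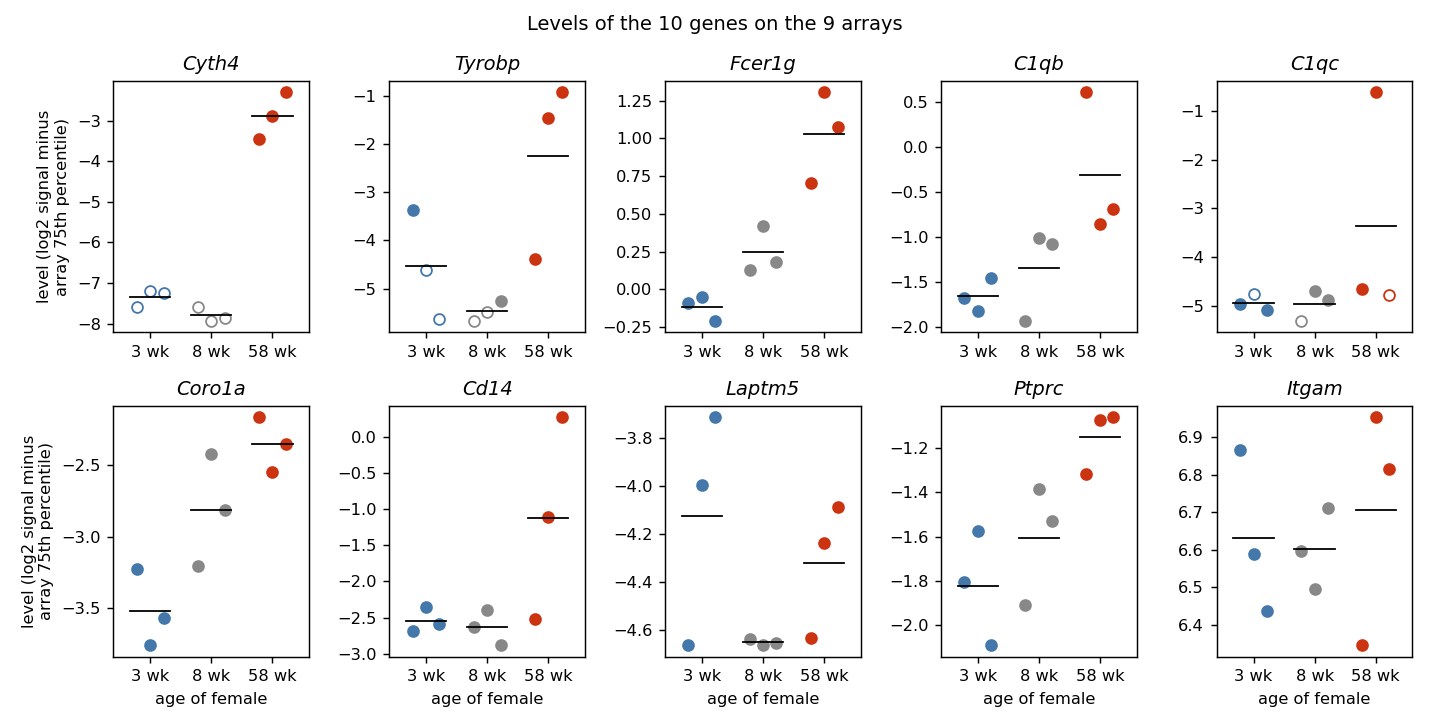
Levels of the 10 genes on the 9 arrays (log2 signal minus the array's 75th percentile, 1 panel per gene with its own axis), by age of the female in weeks as the samples are labelled (8 ± 1 and 58 ± 10 for the older ages). Filled points were well above background on that array, open points were not, and lines are means of 3 arrays. Cyth4 is filled on the 3 climacteric arrays alone, C1qc stands out on climacteric array 2 alone, and Itgam differs little between ages.

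Cyth4 was measured on the 3 climacteric arrays and on no other. Its level was -3.46, -2.89 and -2.31 on climacteric arrays 1 to 3 (mean -2.89 ± 0.58, SD, n = 3). It read -7.59, -7.93 and -7.86 on mature arrays and -7.58, -7.19 and -7.25 on prepubertal arrays, none of them well above background. In processed signal, the climacteric arrays gave 89.9, 125 and 144 fluorescence units, against 4.91 to 5.99 on mature and 5.93 to 7.95 on prepubertal arrays. The younger arrays thus give only a bound. With each dim array set to the faintest level that the software still called well above background there, or to the probe's own level where that was higher, climacteric oocytes held at least 6.18-fold more Cyth4 signal than mature and at least 5.29-fold more than prepubertal oocytes. The measured means were -7.79 in mature and -7.34 in prepubertal oocytes. The 3 climacteric arrays were each above every other array, also within slide 2, where the pair of climacteric arrays exceeded the pair of mature arrays by 4.72 as measured.

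A probe that was well above background on all 3 climacteric arrays and on none of the 6 younger ones was rare, at 8 of 39429 probes (0.0203%). The other 5 with a gene symbol were Atg4c (an autophagy protease), Tnfsf8 (the CD30 ligand), Pcyox1l, 1700011M02Rik and 1700001J03Rik. The reverse patterns were about as rare, with 13 probes measured only on the mature and 4 only on the prepubertal arrays. In limma's fit over 24976 genes, 1 gene (0.004%) passed an adjusted p of 0.05 as higher in climacteric than in mature oocytes. That gene was Cyth4, which was chosen on this contrast and passed the filter on dim probes only through the climacteric arrays. Its mature values in the fit were all below background. The call therefore lends no support to the difference, and nothing is read from it.

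The other cytohesins did not share this pattern of detection. Cyth1, Cyth2 and Cyth3 were each well above background on all 9 arrays. Cyth2 had levels of 3.19, 3.23 and 2.80 on mature and 3.02, 3.02 and 3.21 on climacteric arrays, which overlap, and a difference of 0.01 ± 0.18 (SE; limma adjusted p = 0.980). Cyth3 differed by -0.07 ± 0.26 (adjusted p = 0.922 by limma). Cyth1 differed by 0.55 ± 0.53 (limma adjusted p = 0.667), with -0.54 on climacteric array 1 against -2.77 and -2.12 on the other climacteric arrays and a mean of -2.36 ± 0.38 (SD, n = 3) on mature arrays. A second Cyth1 probe was below background on all 9 arrays, and a second Cyth2 probe differed by -0.41. Of 24 genes tested from the list of cytohesins, other ARF exchange factors, ARFs and their partners, 9 had a positive difference, the median was -0.07 and none passed the threshold in either direction (3 at an unadjusted p under 0.05, where 13.2% of all genes tested were). The largest positive difference in that list was that of Ipcef1, a protein that binds cytohesins, at 1.08 ± 0.43 (limma adjusted p = 0.342). Arf6, a GTPase that cytohesins activate, followed Cyth1 at 0.55 ± 0.26 (limma adjusted p = 0.405). Ipcef1 and Arf6 were about as high in prepubertal as in climacteric oocytes, with climacteric minus prepubertal differences of 0.06 and 0.07. The largest negative difference in that list was that of Grasp, at -0.95 ± 0.69 (limma adjusted p = 0.568).

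Tyrobp was high on climacteric arrays 2 and 3. Its level was -4.38, -1.47 and -0.93 on climacteric arrays 1 to 3, with processed signals of 47.4, 337 and 372. It was -5.67, -5.49 and -5.27 on mature arrays, where 1 of 3 was well above background. It was -3.36, -4.62 and -5.63 on prepubertal arrays, where again 1 of 3 was well above background. Climacteric arrays lay above all mature arrays, but climacteric array 1 lay below prepubertal array 1, so those groups overlap. Climacteric minus mature was 3.21 ± 0.88 (SE), and it was 4.27, 2.82 and 2.55 without climacteric array 1, 2 or 3 in turn. The mature side of these differences is mostly below background; with dim arrays set to their floor as for Cyth4, the first became 3.07.

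Fcer1g, the other ITAM adaptor, was well above background on all 9 arrays. Its level was 0.71, 1.30 and 1.07 on climacteric, 0.13, 0.42 and 0.18 on mature and -0.09, -0.05 and -0.21 on prepubertal arrays. The 3 ages did not overlap, and the order was prepubertal, mature, climacteric. Climacteric oocytes exceeded mature ones by 0.78 ± 0.19 (SE), 1.72-fold, and prepubertal ones by 1.15. The step between the younger ages, prepubertal minus mature, was -0.36 ± 0.19 and did not pass the test (limma adjusted p = 0.493).

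The receptor partners and the kinase of these adaptors were looked at through a list of 23 ITAM pathway genes, of which 13 were tested. Climacteric was above mature in the mean for 9 of the 13 and the median was 0.27, against 0.09 over all genes tested, and 0 passed the threshold in either direction (2 at an unadjusted p under 0.05). Trem2, a receptor that signals through Tyrobp, was well above background on climacteric arrays 2 and 3 alone, at -1.43 and -3.15, and read -7.20 on climacteric array 1. On mature arrays it read -6.02, -7.58 and -6.30 and on prepubertal arrays -6.08, -6.04 and -6.33, all below background. It was therefore not tested. Measured on 2 of 3 climacteric arrays, its climacteric mean was at least 2.99-fold above mature and at least 2.57-fold above prepubertal oocytes. The arrays on which Trem2 was detected are the 2 on which Tyrobp was highest.

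Fcgr4, an Fc receptor that uses Fcer1g, had levels of -0.11, -0.03 and 0.13 on climacteric against -0.54, -0.45 and -0.58 on mature arrays. That is a difference of 0.52 ± 0.14, with no overlap (limma adjusted p = 0.251). Clec7a, the receptor dectin-1 for fungal glucans, differed by 0.98 ± 0.90 and Cd300lb, a Tyrobp-coupled receptor, by 0.54 ± 0.34 (limma adjusted p = 0.651 and 0.518). Syk was well above background on 4 of 9 arrays and was high on climacteric array 1 alone, at -1.90, against -6.05 and -5.54 on the other climacteric arrays. Trem2 and Syk thus stood out on different climacteric arrays, and both were below background on the climacteric arrays where they did not stand out. Fcgr4 lay above the mature arrays on all 3 climacteric arrays. The largest negative difference in the list was that of Sirpb1a, at -0.52 ± 0.16 (limma adjusted p = 0.272).

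C1qb was higher on climacteric arrays mainly through array 1. Its level was 0.61, -0.85 and -0.69 on climacteric, -1.93, -1.01 and -1.08 on mature and -1.68, -1.82 and -1.46 on prepubertal arrays. Climacteric arrays lay above all arrays of the younger ages, but arrays 2 and 3 exceeded the nearest mature array by a small margin. Climacteric minus mature was 1.03 ± 0.40 (SE), 2.04-fold, and 0.57 without climacteric array 1. Climacteric minus prepubertal was 1.34.

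C1qc was high on climacteric array 2 alone. Its level was -4.66, -0.62 and -4.78 on climacteric, -5.31, -4.69 and -4.88 on mature and -4.97, -4.76 and -5.09 on prepubertal arrays. The probe was printed in 10 spots, and on climacteric array 2 these agreed to within an SD of 0.05 and were all well above background. All 10 spots read the same amplified pool. Climacteric minus mature was 1.61 ± 0.96, and 0.24 without climacteric array 2. The groups overlapped.

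C1qb, C1qc and C1qa encode the chains of a single protein complex. The probes of the first 2 peaked on different climacteric arrays. C1qa, the third chain, had levels of -3.43, -3.77 and -4.03 on climacteric and -4.24, -3.74 and -3.92 on mature arrays, which overlap, with a difference of 0.22 ± 0.21 (limma adjusted p = 0.659). Of 16 tested genes of the complement list, 11 had a positive difference, the median was 0.29 and 0 passed the threshold (2 at an unadjusted p under 0.05). Itgax, the alpha chain of complement receptor 4, was well above background on all climacteric arrays (-2.42, -4.60 and -2.61) but on 1 mature array. Its fitted difference of 3.38 ± 0.88 (limma adjusted p = 0.247) thus rests partly on values below background, and became 2.06 with the dim mature arrays set to their floor. The prepubertal arrays (-3.67, -4.18 and -5.73) overlapped the climacteric ones. Cd93, a receptor of myeloid and endothelial cells, differed by 1.51 ± 0.99, with its highest climacteric level on array 2, and Cfp, properdin, by 0.74 ± 0.38, also highest there (limma adjusted p = 0.529 and 0.440). The prepubertal arrays overlapped the climacteric ones for both genes. Cd93 was highest of all on prepubertal array 1 (-0.42, against -1.07 on climacteric array 2), and its climacteric minus prepubertal difference was 0.02. C4b had the largest negative difference, -0.76 ± 0.70 (limma adjusted p = 0.650).

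Cd14 was high on climacteric arrays 2 and 3. Its level was -2.52, -1.11 and 0.27 on climacteric, -2.63, -2.39 and -2.88 on mature and -2.68, -2.36 and -2.59 on prepubertal arrays. Climacteric array 1 lay within the range of the younger arrays, so the groups overlapped. The difference from mature was 1.52 ± 0.58, and 0.82 without climacteric array 3. Tlr4, the receptor that Cd14 serves, was not well above background on any array, and Ly96 (MD-2), which binds lipopolysaccharide with it, differed by -0.17 ± 0.19 (limma adjusted p = 0.704). In the list of the CD14 and TLR4 pathway, 6 of 12 tested genes had a positive difference, the median was 0.06 and 0 passed the threshold (2 at an unadjusted p under 0.05). The largest positive one was that of Tnf, at 0.45 ± 0.17, followed by Ly86 at 0.42 and Ticam1 at 0.42 (limma adjusted p = 0.318, 0.577 and 0.364). Irak1 had the largest negative difference, -0.32 ± 0.34 (limma adjusted p = 0.699).

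Ptprc, the pan-leukocyte phosphatase CD45, was well above background throughout. Its level was -1.31, -1.07 and -1.06 on climacteric, -1.91, -1.39 and -1.53 on mature and -1.81, -1.57 and -2.09 on prepubertal arrays. Climacteric arrays lay above all others, by a narrow margin for array 1. The difference from mature was 0.46 ± 0.20 (SE), and within slide 2 it was 0.26.

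Coro1a had levels of -2.16, -2.55 and -2.35 on climacteric, -3.20, -2.42 and -2.81 on mature and -3.22, -3.76 and -3.57 on prepubertal arrays. Climacteric and mature arrays overlapped, and the difference of 0.46 ± 0.24 became 0.26 within slide 2. Climacteric arrays lay above all prepubertal arrays, by 1.16 in the mean. Prepubertal arrays also lay below all mature arrays, by 0.70 ± 0.24, which did not pass the test (limma adjusted p = 0.413). The coronins of other tissues, Coro1b and Coro1c, differed between climacteric and mature oocytes by 0.53 ± 0.36 and 0.32 ± 0.44 (limma adjusted p = 0.540 and 0.770). The 6 genes of the coronin list had a median of 0.43, with Coro7 largest at 0.83 ± 0.53 (limma adjusted p = 0.522) and Coro2a at -0.05, and 0 passed the threshold (0 at an unadjusted p under 0.05).

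Laptm5 was highest on prepubertal arrays 3 and 2, not on climacteric arrays. Its level was -4.63, -4.24 and -4.09 on climacteric, -4.64, -4.66 and -4.66 on mature and -4.66, -4.00 and -3.71 on prepubertal arrays. Climacteric arrays lay above the mature ones, array 1 by almost nothing, and overlapped the prepubertal ones. The difference was 0.33 ± 0.26 from mature and -0.19 from prepubertal oocytes. A second Laptm5 probe was not well above background on any array.

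Itgam showed small differences by all 3 of its probes. The probe with the highest mean level holds the CA repeat printed above and shares a run of at least 20 bases with 72 probes of other genes, and 76 probes (0.193%) on the array hold such a repeat of at least 20 bases. Its level of 6.35 to 6.95 may not be Itgam's, and its difference was 0.10 ± 0.20, which became -0.020 without climacteric array 2. The other probes differed by 0.08 and by 0.28. The last had levels of -1.80, -1.66 and -1.52 on climacteric against -1.98, -1.95 and -1.90 on mature arrays, with no overlap. Its partner Itgb2, the CD18 chain, had a difference of 0.42 ± 0.20 (limma adjusted p = 0.406).

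Counted together, all 10 genes had a positive climacteric minus mature difference, by the probe used for each, where 59.1% of all genes tested had one. The median was 0.91, also with Cyth4 at its bound, against 0.09 over all genes. In 6 of the 10 the climacteric arrays lay above all mature arrays (Cyth4, Tyrobp, Fcer1g, C1qb, Laptm5 and Ptprc), where 13.7% of all genes did, and 5 differed by more than 1, where 2.26% did. Against prepubertal oocytes 9 of 10 had a positive difference (56.9% of all genes), the median was 1.25, and 5 lay above without overlap (20.6% of all genes). In that comparison 0.0761% of all genes passed the threshold as higher, 1 member (Cyth4) among them. Both climacteric comparisons share the climacteric arrays. These counts follow from how the genes were chosen, and nothing is read from them.

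The members differed in which climacteric array carried the signal. By level, array 3 was the highest climacteric array for Cyth4, Tyrobp, Cd14, Laptm5 and Ptprc, array 2 for Fcer1g, C1qc and Itgam, and array 1 for C1qb and Coro1a. Array 3 had the lowest 75th percentile of the 9 arrays (log2 9.47), so the scaling raised its levels most. In processed signal, array 2 was instead the highest climacteric array for Ptprc (442 against 341 on array 3) and Laptm5 (49.4 against 41.8). Differences from the mature mean of more than 1 were seen for 3 genes on array 1, 5 on array 2 and 3 on array 3, where 4.46% to 5.33% of all genes passed that size. Across the 9 arrays, the 45 pairs of members had a Pearson r from -0.45 (Coro1a with Laptm5) through a median of 0.54 to 0.91 (Fcer1g with Ptprc). Tyrobp and Cd14 had an r of 0.87 and Tyrobp and C1qb one of 0.28. These values include the step between ages on which the genes were chosen, and arrays of a pair of genes share slide and amplification.

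**Figure D2:**
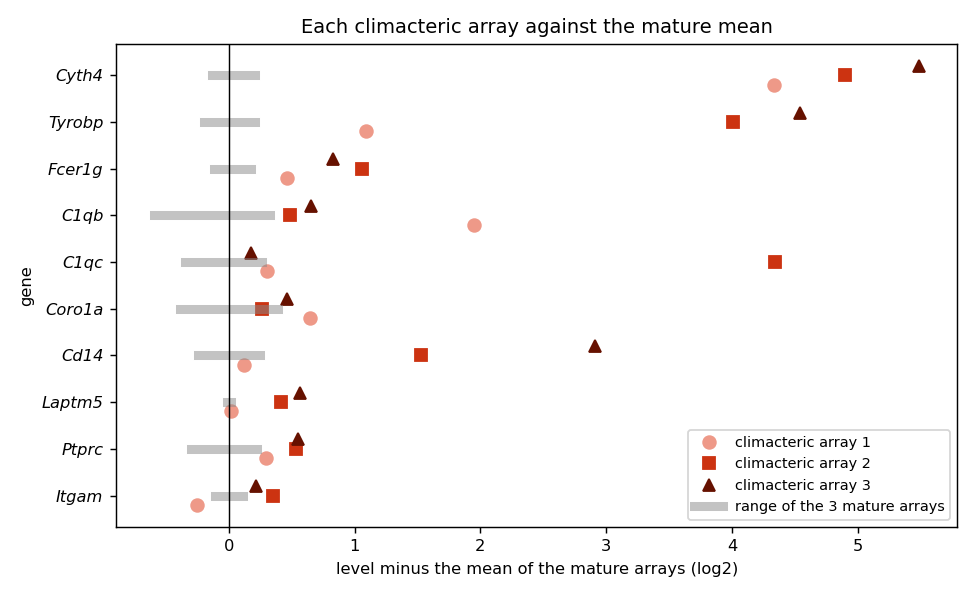
Level of each gene on each climacteric array minus its mean over the 3 mature arrays (log2, horizontal axis), with the range of the 3 mature arrays as a grey bar. Cyth4 is far to the right on all 3 arrays, Tyrobp and Cd14 on arrays 2 and 3, C1qc on array 2 and C1qb on array 1; the mature side of Cyth4 and most of Tyrobp is below background.

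Prepubertal against mature oocytes is the comparison on which the genes were not chosen. Of the 9 members measured on at least 1 array of each of these ages none passed the threshold. The smallest adjusted p by limma was 0.413, for Coro1a, with 1 member at an unadjusted p under 0.05. Over all genes, 0.0601% passed. Cyth4 was below background on all 6 arrays of these ages and has no order between them. Of the other 9 members, prepubertal was above mature in the mean for 5 (48.2% of all genes), with a median of 0.02. The groups did not overlap in Fcer1g and Coro1a, which lay lower in prepubertal oocytes (9.21% of all genes did), and 0 of the 9 lay higher without overlap (9.17% of all genes did). Tyrobp, well above background on 1 array of each of these ages, passed the filter only through the climacteric arrays. Its difference of 0.94 ± 0.88 thus rests mostly on values below background, and nothing is read from it. With the filter applied to these 6 arrays alone, 8 members were tested, without Cyth4 and Tyrobp. Of these 8, 4 had a positive difference, the median was -0.10 and 0 passed the threshold. This comparison runs largely across slides, since mature array 1 alone shared slide 1 with the prepubertal arrays. Mature array 1 was the lowest of the mature arrays for 6 of the 10 members, where this held for 43.0% of all genes tested, and C1qb there (-1.93) was nearer the prepubertal than the other mature arrays. The part of slide in these values was not tested.

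Markers of the cells that could carry these genes were given by lists. Over all 17 lists, 216 of 266 genes were tested besides the members, and 0 passed the threshold in limma in any comparison. For climacteric minus mature the smallest adjusted p was 0.180, and 28 of the 216 (13.0%) were under 0.05 before adjustment, where 13.2% of all genes tested were. Those shares were 26.4% (57 genes) and 23.2% for climacteric minus prepubertal, and 10.2% (22 genes) and 11.3% for prepubertal minus mature. Of 19 tested macrophage and monocyte markers, 15 had a positive difference, the median was 0.22 and their summed linear level overlapped between the ages (up to 33.3 on climacteric and 29.8 on mature arrays). That sum was largely Lgmn, a lysosomal protease. Without it the sums were 12.4 to 12.6 on climacteric and 10.6 to 11.4 on mature arrays, which do not overlap. The prepubertal sums without Lgmn, 9.32 to 12.6, overlapped both. Bright genes weigh most in such a sum. Among them was Csf2ra, with levels of 1.78, 1.65 and 1.69 on climacteric and 0.93, 1.03 and 1.30 on mature arrays. It differed by 0.62 ± 0.21 (limma adjusted p = 0.299), and its prepubertal levels, 1.95, 1.29 and 1.32, overlapped the climacteric ones. Which genes carry the separation of the sums was not analysed. Cathepsin S (Ctss), a protease of antigen-presenting cells, had the largest difference, with levels of -2.43, -0.91 and -0.79 on climacteric against -3.75, -3.36 and -3.91 on mature and -3.83, -3.61 and -3.58 on prepubertal arrays. The climacteric arrays lay above all others, by 2.30 ± 0.40 over mature, and did not pass the threshold (limma adjusted p = 0.180). Mpeg1, the macrophage pore protein perforin-2, had -1.07, -1.07 and -1.93 against -3.14, -2.21 and -2.47 on mature arrays, a difference of 1.25 ± 0.30 without overlap (limma adjusted p = 0.242).

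Of the genes that define macrophages, Csf1r, the receptor for macrophage colony-stimulating factor, differed by -0.01 ± 0.22 and Adgre1, a surface receptor of macrophages, by 0.17 ± 0.18 (limma adjusted p = 0.983 and 0.702). Cd68 differed by 0.02 ± 0.29 and Aif1, which was above background on 1 array of each age, by 0.65 ± 0.39 (limma adjusted p = 0.983 and 0.493). Lyz2, the macrophage lysozyme, was above background on 2 climacteric arrays and no mature one, at least 1.34-fold higher in the mean. Ms4a7 was so on 1 climacteric array and no mature one. Its bound on the mean, at least 1.56-fold, rests on that 1 array. Both were chosen after their values were seen. Fcgr1, another untested gene of this list, was above background on 1 climacteric array and no prepubertal one. Its climacteric mean gave no bound above prepubertal oocytes. Mrc1, the mannose receptor, had the largest negative difference, -0.62 ± 0.16 (limma adjusted p = 0.247). The part of macrophage RNA in the levels of the 10 genes was not tested.

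**Figure D3:**
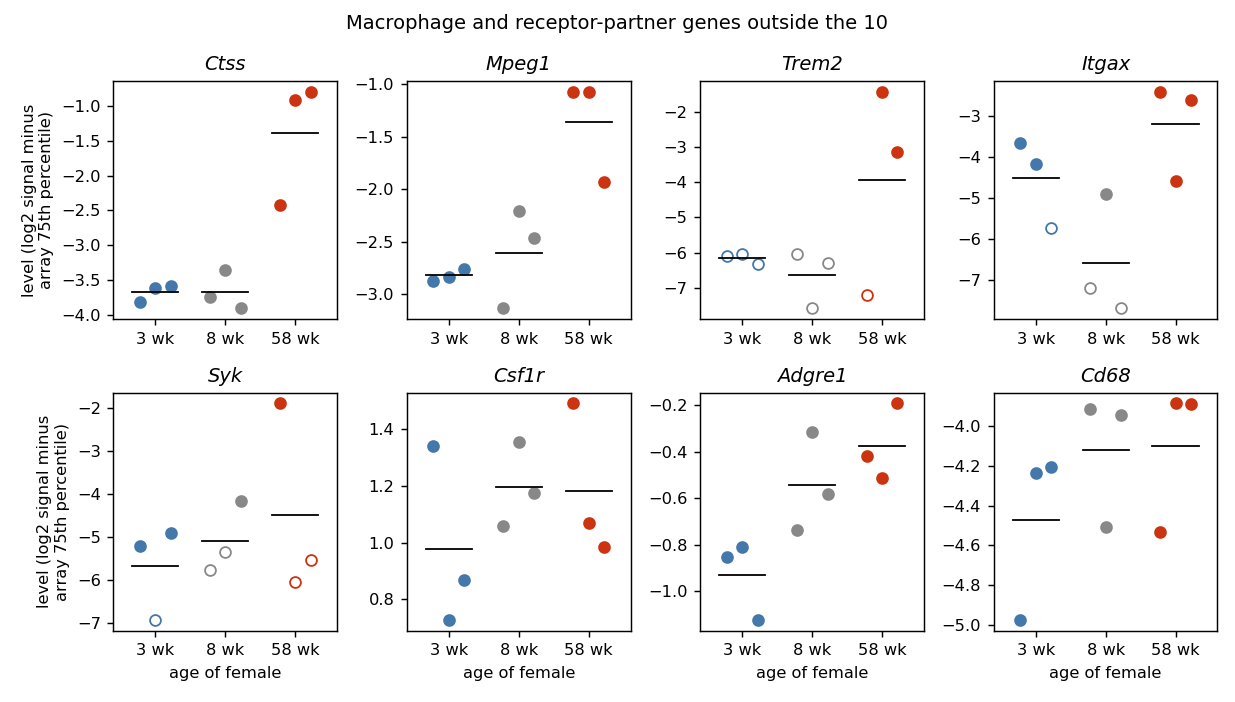
Levels of 8 genes outside the 10 on the 9 arrays (log2 signal minus the array's 75th percentile), by age in weeks; filled points were well above background, open points were not, and lines are means of 3 arrays. Ctss and Mpeg1 are higher on all climacteric arrays and Trem2 is filled on climacteric arrays 2 and 3 alone, while Csf1r, Adgre1 and Cd68 overlap between mature and climacteric oocytes.

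Of the pan-leukocyte genes, 15 of 21 tested were above mature in the mean and their median was 0.27; their summed level was 17.8 to 22.3 on climacteric and 18.2 to 20.3 on mature arrays. Vav1, an exchange factor of blood cells, differed by 1.07 ± 0.29 (limma adjusted p = 0.252). Among genes of this list above background on at least 6 arrays, Plek had the largest negative difference, -0.66 ± 0.20 (limma adjusted p = 0.268). Cd53 was above background on 1 array in all, a prepubertal one, and Cytip, which binds Cyth1, differed by 0.37 ± 0.43 (limma adjusted p = 0.730). Granulocyte and mast cell markers had 8 of 10 positive and a median of 0.20, with summed levels of 107 to 171 on climacteric and 86.8 to 104 on mature arrays. The prepubertal sums, 104 to 113, overlapped the climacteric ones. The separation from mature arrays rests on the bright probe of Csf3r, the receptor for granulocyte colony-stimulating factor. Without it the climacteric and mature sums overlapped, at 10.0 to 12.8 and 8.17 to 11.6. Of these markers, the mast cell protease Cma1 was largest at 0.67 ± 0.33 (limma adjusted p = 0.427). T and NK cell markers had 7 of 13 positive with a median of 0.04, and B cell markers 5 of 9 with a median of 0.06, and both summed levels overlapped between the ages. Without their brightest genes, the B cell sums still overlapped. The T and NK cell sum without Nkg7 was lower on climacteric than on mature arrays (11.5 to 11.9 against 13.0 to 15.0). Its climacteric range overlapped the prepubertal one (11.9 to 13.4).

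Of cells that surround the oocyte, cumulus and granulosa markers had 8 of 20 positive and a median of -0.24, with summed levels of 34.8 to 45.1 on climacteric and 37.3 to 55.4 on mature arrays. Cyp11a1, which starts steroid synthesis, was the largest positive at 1.18 ± 0.58 and Has2, which makes the hyaluronan of the expanding cumulus, the largest negative at -1.55 ± 1.03 (limma adjusted p = 0.422 and 0.534). Oviduct markers had 6 of 10 positive and a median of 0.27, and their summed level was 2.65 to 6.36 on climacteric and 1.73 to 2.58 on mature arrays. That separation rests on the keratin Krt18, which read 2.30 on climacteric array 1; without it the sums overlapped, at 1.45 to 2.02 and 1.46 to 1.55. Stroma and theca markers had 6 of 10 positive with a median of 0.09, and their sums, 3.74 to 3.93 against 2.89 to 3.69, did not overlap, nor did they without the brightest gene, Cyp17a1 (2.05 to 2.15 against 1.42 to 1.96). Endothelium markers had 5 of 8 positive and a median of 0.08. Their sums were 13.8 to 19.6 on climacteric and 19.7 to 20.8 on mature arrays. That separation rests on Kdr, since without it the sums overlapped (1.82 to 2.03 and 1.61 to 2.73). With Kdr, the prepubertal sums, 16.7 to 20.8, overlapped both. Erythroid (5 of 7, median 0.19) and platelet markers (3 of 6, median 0.01) had sums that overlapped. Without the brightest gene, Slc4a1, the erythroid sums did not (1.05 to 1.39 against 0.82 to 1.03). None of the genes in these lists passed the threshold, and the part of such cells in the levels of the 10 genes was not tested.

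**Figure D4:**
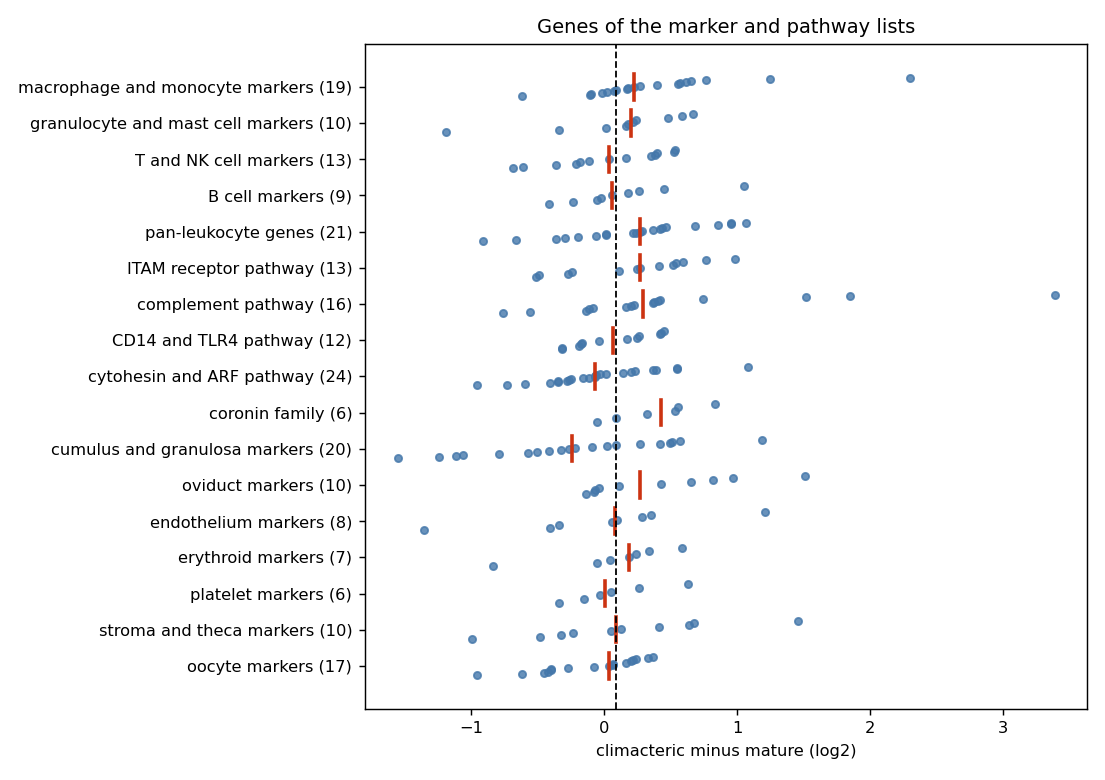
Climacteric minus mature difference (log2, horizontal axis) of every tested gene of the 17 marker and pathway lists, 1 point per gene, with the number tested in brackets; the 10 genes themselves are left out. Red bars are list medians and the dashed line is the median of all genes tested, 0.09. Itgax (3.38, or 2.06 with its dim mature arrays at their floor) and Ctss (2.30) lie farthest to the right.

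The genes whose levels ran most like those of Cyth4 over the 9 arrays were ranked among 24869 genes measured on all of them. By Pearson r, over 9 arrays that share the step to the climacteric age, the closest 5 were an unnamed probe (0.985), Fcgr4 (0.979), Lrrc43 (0.974), another unnamed probe (0.972) and Olfml2b (0.969). Fcer1g ranked 271 with 0.88 and Tyrobp ranked 835 with 0.82. For Tyrobp, 4 unnamed probes had an r of 0.966 to 0.979, followed by Prr11 with 0.965, and Cd14 ranked 148. Most of Cyth4's and Tyrobp's younger values were below background, so these orders rest largely on the climacteric arrays.

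Promoters were looked at because several members are known targets of PU.1, an ETS factor of myeloid cells that binds purine-rich sites with a core GAGGAA. RefSeq promoters of GRCm38.p6 were taken as the 250 bases before each start; 8 of the 10 genes matched, with 10 promoters. GAGGAA, on either strand, was in 5 of the 10, those of C1qb, C1qc, Itgam, Laptm5 and 1 of 2 of Ptprc, where 23.3% of 32851 promoters hold it. The longer GAGGAAGT, which contains it, was in C1qc alone (2.44% of all promoters). TATAAA was in 2 (Laptm5 and Ptprc; 12.4% of all) and the AP-1 type motif TGANTCA in 0 (6.75% of all). The promoters of C1qb, C1qc and Cyth4 are shown, because the C1q chains peaked on different arrays and Cyth4 holds none of these motifs in this window; GAGGAA or its complement TTCCTC is in capitals.
C1qb promoter: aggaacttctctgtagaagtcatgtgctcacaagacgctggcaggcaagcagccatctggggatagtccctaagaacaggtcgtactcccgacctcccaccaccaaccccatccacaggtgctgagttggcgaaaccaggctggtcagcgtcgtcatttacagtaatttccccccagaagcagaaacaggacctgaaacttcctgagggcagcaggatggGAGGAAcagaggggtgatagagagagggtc
C1qc promoter: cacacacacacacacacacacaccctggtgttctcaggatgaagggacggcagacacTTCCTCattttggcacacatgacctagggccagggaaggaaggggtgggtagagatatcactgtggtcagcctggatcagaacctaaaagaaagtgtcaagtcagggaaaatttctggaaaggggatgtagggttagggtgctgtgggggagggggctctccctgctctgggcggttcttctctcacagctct
Cyth4 promoter: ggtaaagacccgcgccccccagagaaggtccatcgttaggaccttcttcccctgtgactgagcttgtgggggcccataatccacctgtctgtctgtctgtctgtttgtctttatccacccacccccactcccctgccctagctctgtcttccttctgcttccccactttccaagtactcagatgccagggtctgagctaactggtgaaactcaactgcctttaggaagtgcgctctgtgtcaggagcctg
They are at chr4:136886201-136886450 (C1qb, minus strand), chr4:136892915-136893164 (C1qc, minus strand) and chr15:78596797-78597046 (Cyth4, plus strand). The match lies 30 bases before the start in C1qb and 193 in C1qc. A match is a description of letters and not a bound site.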

How the data were processed

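Each of the 9 arrays (3 pools for each of 3 ages) was deposited as a scanner file with a linear spot intensity, which per the file headers was read with Feature Extraction 9.5.1.1 (9.5 in the submitters' processing notes) with spatial and multiplicative detrending and surrogate values near background. The series' value table, deposited on a log2 scale, has 1 row per probe. Its normalization by the authors is not given in the sources used here. Its columns followed log2 mean intensity of the same arrays (r at least 0.9988, column medians 8.03 to 8.05), and the table served as an alternative.

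From each array's log2 processed signals their 75th percentile was subtracted, control probes aside. Spots flagged as outliers (0.195% to 0.621% per array) were left out and saturated ones kept, no more than 4 probes per array. The 399 probes with repeated spots were averaged. Probes well above background on at least 3 of 9 arrays and measured on at least 2 arrays per age were tested, and the probe of highest mean stood for a gene, which gave 24976 genes. Symbols came from a RefSeq table of GRCm38.p6 for 29691 probes and from the array file alone for 1718; 8020 had none. Ages were compared with limma 3.58.1 (R 4.3.3), 1 mean per age on all 9 arrays, 6 residual and 2.46 prior degrees of freedom, two-sided, with Benjamini-Hochberg adjustment over all genes tested and a threshold of 0.05. The fit was also run on simulated normal values without slide effects or a background floor. That run does not show how the fit behaves in these data. Only 3 arrays per age limit the precision, and the depth of an array has no count. A probe not well above background on an age has only a bound there.

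The 10 genes and the 17 lists were chosen with earlier results of these data known. Of each list, the text names from: every called gene, the 3 largest positive and the largest negative climacteric minus mature difference among genes above background on at least 6 arrays, genes named in advance (such as Csf1r, Syk and Tlr4), and the 5 genes most like Cyth4 and the 5 most like Tyrobp. Ly6g and Hbb-b1 had no probe under these names. Alternatives covered scaling, background, filter, probe choice, slide, pairing and each array left out.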

Additional observations from a re-analysis of the deposited data

How the results depend on the processing

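All 10 differences of the members kept a positive sign under every alternative run in which the gene was tested, except Itgam, which became -0.020 without climacteric array 2 and ranged from there to 0.28 with each array left out. Their median of 0.91 became 0.46 when only probes above background on all 9 arrays were kept (7 members then tested), and ranged from 0.56 to 1.03 with each array left out in turn; with Itgam by its probe of larger difference, an alternative chosen after seeing the data, it stayed at 0.91. Cyth4, above background on 3 arrays in all, was not tested under the filter on all 9 arrays, within slide 2, or with any climacteric array left out. Its difference was 1.51 with normexp and quantile normalization and 1.19 in the deposited table; the first adds an offset of 50 and the second follows the mean signal. Under both, the 1 gene called was another, lower in climacteric oocytes. The replicate block left 1 call in climacteric against mature, 1 in climacteric against prepubertal and 0 in prepubertal against mature. Same-numbered arrays correlated at -0.09 to 0.21 in their deviations, with 3 of 9 pairs over 0.1. Arrays of other numbers correlated at -0.22 to 0.11, with 1 of 18 pairs over 0.1. These values do not settle whether the numbers pair the arrays, and the fit used above did not pair them.

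Genes called in climacteric against mature oocytes (1) became 0 under the filter on all 9 arrays and within slide 2, and 0 to 5 with each array left out. In climacteric against prepubertal oocytes (25) they became 4 with no filter, 38 with the filter on all 9 arrays, 0 with slide as a fixed block, 2 with slide as a random block, 299 with only those 6 arrays, and 0 to 1390 with each array left out (1390 without mature array 1). In prepubertal against mature oocytes (15) they became 0 with slide as a fixed block, with slide as a random block, within slide 1 and with only those 6 arrays, and 0 to 274 with each array left out (274 without mature array 1). Genes of the lists called (0) became 1 in climacteric against mature oocytes without climacteric array 1. In climacteric against prepubertal oocytes they became 1 without that array, 2 with only those 6 arrays, and 14 higher and 1 lower without mature array 1. The percentile over probes above background on all 9 arrays moved the median of all genes in climacteric against prepubertal oocytes from 0.09 to 0.22, and split the prepubertal against mature calls 1 higher to 13 lower instead of 3 to 12. With normexp and quantile normalization that split was 0 to 13, with quantile normalization alone 1 to 12, and 0 to 12 in the deposited table. For climacteric against prepubertal, 19 higher to 6 lower became 18 to 10 with normexp and quantile normalization and 11 to 6 with quantile normalization alone. No cause of these shifts was tested. Levels under the background of an array, which include Cyth4 at both younger ages, have no order.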
